A study of Mus musculus with 15 samples.

Results

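Tpi1, Gapdh, Pgk1, Pgam1, Eno1, Pkm, Ldha, Ldhb, Slc16a1 and Slc16a3 carry a triose phosphate through lower glycolysis to pyruvate, then to lactate and out of the cell. These 10 genes were taken by gene name from a table of 54495 genes, and not by a cutoff on their values. Earlier results of these data were known when they were chosen. The table gives 15 polyA RNA libraries of mouse embryonic fibroblasts (MEFs), cells grown out of embryos of day 13.5. The medium was DMEM with fetal bovine serum (10%), and the cells grew at 3% O2 and 5% CO2 at 37 °C. TRIzol was used to extract RNA before library preparation (NEBNext Ultra). All 6 groups lack mTR (the template RNA that telomerase copies) and the Werner syndrome helicase Wrn. The groups called DM have the genotype mTR-/-Wrn-/-p53WT, with wild-type p53. The groups called TM have the genotype mTR-/-Wrn-/-p53N236S/N236S, with the p53 change N236S on both alleles. G1, G3 and G5 are successive generations bred without telomerase. There were 2 libraries of G1DM, 2 of G1TM, 2 of G3DM, 3 of G3TM, 3 of G5DM and 3 of G5TM. The labels do not say whether libraries of a group came from separate embryos, so p-values measure only the spread between these libraries. MEFs with telomerase and Wrn, which the design text also names as controls, were not analysed here.

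Lower glycolysis turns each triose phosphate into pyruvate and yields ATP at the steps of phosphoglycerate kinase and pyruvate kinase. Lactate dehydrogenase then reduces pyruvate to lactate, which returns NAD+ to the glyceraldehyde-3-phosphate dehydrogenase step, and monocarboxylate transporters carry lactate out with a proton. The LDHA and LDHB subunits form mixed tetramers, and LDHA-rich forms are the ones usually linked to lactate production. Wild-type p53, hypoxia-inducible factors and Myc are all known regulators of glycolytic genes, and cultured fibroblasts are known to rely on glycolysis heavily.

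Values are FPKM, fragments per kilobase of gene length on the authors' library scaling, so levels can be compared between genes. A difference is the difference of group means of log2(FPKM + 1), with its standard error (SE). It was tested with limma across the 13562 genes that reached 1 FPKM in 2 or more libraries, and called at a Benjamini-Hochberg adjusted p under 0.05. The added 1 understates differences of low genes. Reads recovered from the FPKM totalled 17448588 to 29571111 per library. The 12 fibroblast markers summed to 3355 to 6494 FPKM per library, and the 8 erythroid markers to at most 0.49 FPKM. The G3TM and G5TM libraries, 6 in all, differed from the other 9 as a block. Rpl12 lay at 300.4 to 609.7 FPKM in the 6 and at 3.84 to 6.77 FPKM in the 9, and 2325 tested genes (17.1%) were higher in all 6 than in any of the 9. TM against DM in G3 and G5, and G3 or G5 against G1 in TM, span this division, so it cannot be told apart from genotype or generation there. TM against DM in G1 and the comparisons within DM lie inside the 9. Cdkn1a, a direct p53 target, was lower in TM in every generation, at 5.06 ± 1.19 FPKM in G1TM (SD, n = 2) against 113.5 ± 3.79 in G1DM (SD, n = 2). Wrn lay at 0.599 FPKM or less, and Terc, the gene of mTR, at 0.109 FPKM or less in all 15 libraries. No polyA library of cells with telomerase or Wrn was analysed for comparison, so these low values are not a check of the genotype.

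Promoter sequences are shown first, with the motifs of factors long tied to glycolysis marked. Whether these motifs bear on the levels of the genes was not tested. Each window holds the bases before a start site in RefSeq (build GRCm38.p6) and the first ones after it, 300 in all, and 14 windows matched the 10 genes. The letters searched, on both strands, were ACGTG, the core of the hypoxia response element, and GCGTG, its other common form. CACGTG, the E-box bound by Myc, contains ACGTG and was counted as part of it. Capitals mark a match on either strand. Shown are Ldha, whose window had the most matches, Ldhb, the gene of the other LDH subunit, and Slc16a3 and Pgk1.
Ldha, chr7:46845554-46845853, plus strand: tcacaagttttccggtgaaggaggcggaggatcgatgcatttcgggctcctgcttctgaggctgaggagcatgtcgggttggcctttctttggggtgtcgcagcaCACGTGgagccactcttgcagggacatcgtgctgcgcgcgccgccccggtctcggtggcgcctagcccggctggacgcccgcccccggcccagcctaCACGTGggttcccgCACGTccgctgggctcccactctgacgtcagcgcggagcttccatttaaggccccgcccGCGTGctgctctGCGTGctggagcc
Ldhb, chr6:142507908-142508207, minus strand: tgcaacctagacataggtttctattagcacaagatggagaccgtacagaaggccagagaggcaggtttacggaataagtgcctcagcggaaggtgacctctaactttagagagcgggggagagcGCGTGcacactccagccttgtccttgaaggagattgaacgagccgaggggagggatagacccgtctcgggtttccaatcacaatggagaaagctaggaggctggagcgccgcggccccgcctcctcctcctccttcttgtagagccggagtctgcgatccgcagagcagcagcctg
Slc16a3, chr11:120948817-120949116, plus strand: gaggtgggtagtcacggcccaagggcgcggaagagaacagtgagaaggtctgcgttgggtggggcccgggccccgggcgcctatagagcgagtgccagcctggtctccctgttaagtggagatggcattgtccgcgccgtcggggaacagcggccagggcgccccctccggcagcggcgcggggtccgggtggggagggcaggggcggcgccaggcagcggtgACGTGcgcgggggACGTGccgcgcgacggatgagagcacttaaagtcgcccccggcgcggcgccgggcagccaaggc
Pgk1, chrX:106186850-106187149, plus strand: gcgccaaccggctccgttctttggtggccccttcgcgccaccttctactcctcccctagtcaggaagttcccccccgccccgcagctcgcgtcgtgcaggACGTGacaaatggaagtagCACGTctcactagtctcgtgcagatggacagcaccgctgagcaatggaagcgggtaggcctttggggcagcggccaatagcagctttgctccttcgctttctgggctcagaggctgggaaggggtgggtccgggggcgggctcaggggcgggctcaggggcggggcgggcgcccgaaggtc
The Ldha window held 7 matches in 5 separate stretches. CACGTG reads the same on both strands and so gives 2 matches each time, and 4 of the 7 lay within its 2 copies there. The Slc16a1 window held 5 matches in 4 stretches, 2 of the matches within 1 CACGTG. Ldhb had 1 match, while Slc16a3 and Pgk1 had 2 each. Of the 14 windows, 12 held ACGTG or GCGTG, as did 43.8% of all 32851 RefSeq windows of this length. Windows 2 and 3 of Eno1 overlap and hold the same 2 matches, so the 14 are not independent. Among the 10 genes, 9 had a match in some window, and Tpi1 had none. Eno1, Pkm and Ldha had more than 1 window, so this count by gene has no share by window beside it. Of the 14 windows, CACGTG was in 1 of Ldha and 1 of Slc16a1 only, and it was in 7.15% of all windows.

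Several members share their sequence with processed pseudogenes, which are reverse-transcribed copies placed elsewhere in the genome, and reads that match both can be counted for either. The table listed 161 near-identical copies of Gapdh (at least 90% identity over at least 200 bases), and 78.0% of the 100-base windows of its transcript occurred exactly in another gene. The corresponding shares were 67.0% for Pgk1, 59.0% for Eno1, 39.7% for Pgam1, 9.82% for Pkm, 8.80% for Ldhb, 1.28% for Ldha and 0.796% for Tpi1. Slc16a1 and Slc16a3 had no such copy. To show how close copies can be, 60 bases of coding sequence are printed from Gapdh and Gm5559 and from Tpi1 and Tpi-rs11, with capitals where the members of a pair differ.
Gapdh, coding bases 355 to 414: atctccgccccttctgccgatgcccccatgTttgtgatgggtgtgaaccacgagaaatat
Gm5559, same stretch: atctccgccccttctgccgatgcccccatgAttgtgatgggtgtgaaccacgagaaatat
Tpi1, coding bases 593 to 652: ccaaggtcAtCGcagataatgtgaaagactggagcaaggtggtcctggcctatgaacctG
Tpi-rs11, same stretch: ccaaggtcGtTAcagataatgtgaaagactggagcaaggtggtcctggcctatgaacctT
Gm5559 differed from Gapdh at 1 of 1002 aligned bases, and Tpi-rs11 differed from Tpi1 at 7 of 310. Gm5559 lay at 17.8 to 51.9 FPKM over the 15 libraries. Tpi-rs11 lay at 5.81 to 16.9 FPKM in the 9 libraries and at 177 to 491 FPKM in the 6 of G3TM and G5TM.

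Gapdh, the enzyme that oxidizes the triose phosphate and the usual reference gene, had the widest spread of the 10, from 2.56 to 130.2 FPKM. Its FPKM was 11.1 and 2.64 in the G1DM libraries, 14.8 and 55.1 in G1TM, 25.0 and 2.56 in G3DM, and 59.3, 130.2 and 108.7 in G3TM. In G5 it lay at 8.98, 3.70 and 3.39 FPKM in DM and at 4.80, 110.0 and 69.3 in TM. Replicates of 1 group thus lay far apart in G3DM and G5TM, and G5TM replicate 1 was within the range of DM. Scaled to the length of Gapdh, its copies together lay between 23.8 and 72.6 FPKM, a much narrower range. They came to 0.423 times the level of Gapdh itself in G3TM replicate 2 and to 17.4 times in G3DM replicate 2. Gapdh and its copies together ranged from 27.2 to 185.2 FPKM. Iffo1, on the opposite strand, overlaps Gapdh, and whether strand was used in counting is not given in the sources used here.

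**Figure D1:**
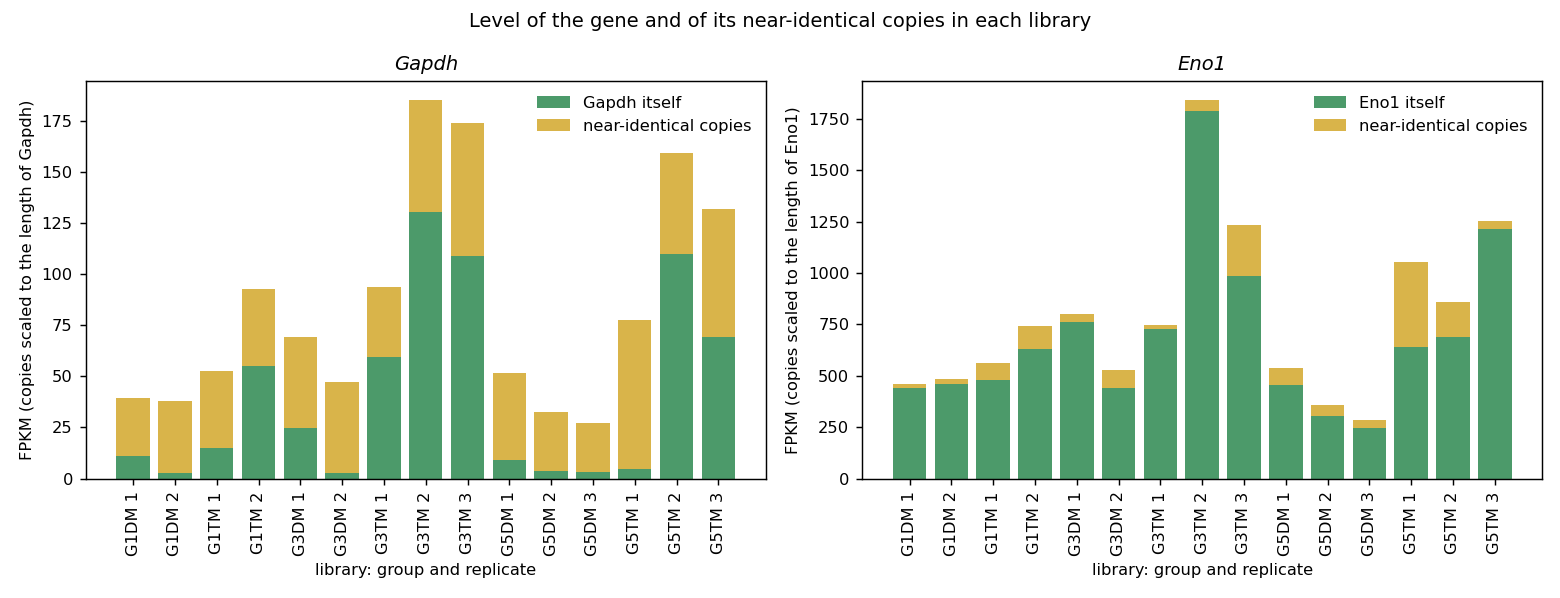
Stacked bars give, for each library, the FPKM of Gapdh (left) and Eno1 (right) in green and of their near-identical copies in yellow, with the reads of the copies scaled to the length of the gene itself. The copies of Gapdh exceed Gapdh in 9 of 15 libraries, while those of Eno1 stay below 0.65 times Eno1 in every library.

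Eno1, the enolase, had a smaller split of the same kind. Its copies came to between 0.029 and 0.649 times its own level. The highest ratio was that of G5TM replicate 1, in which the retrogene Eno1b lay at 1052 FPKM and Eno1 at 639 FPKM. The copies of Pgk1 and Pgam1 came to at most 0.016 and 0.045 times the gene, so adding them changes the printed level little. How reads shared with copies were counted is not given in the sources used here. These ratios therefore cannot show whether reads of the genes themselves were lost.

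By level, 7 of the 10 genes were among the most abundant of the tested genes. The medians over 15 libraries were 788 FPKM for Pkm (pyruvate kinase), 729 for Ldha, 630 for Eno1, 576 for Pgk1, 429 for Pgam1 (phosphoglycerate mutase) and 384 for Tpi1 (triose phosphate isomerase). Slc16a3, which encodes MCT4, the export-type lactate transporter, followed at 95.4 FPKM, then Ldhb at 26.4, Gapdh at 14.8 and Slc16a1 (MCT1) at 9.15. Neighbours in this order from Pkm to Tpi1 overlapped in range over the libraries, while Slc16a3, at 37.5 to 330.2 FPKM, lay below Tpi1 in each library. The order rests on the listed gene lengths and could differ on transcript lengths. For genes with copies it also rests on how shared reads were counted, which is not given in the sources used here. All 10 genes passed the filter, each with an FPKM above 1 in all 15 libraries, and the lowest recovered read number of any member in any library was 204, for Gapdh in G3DM replicate 2.

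**Figure D2:**
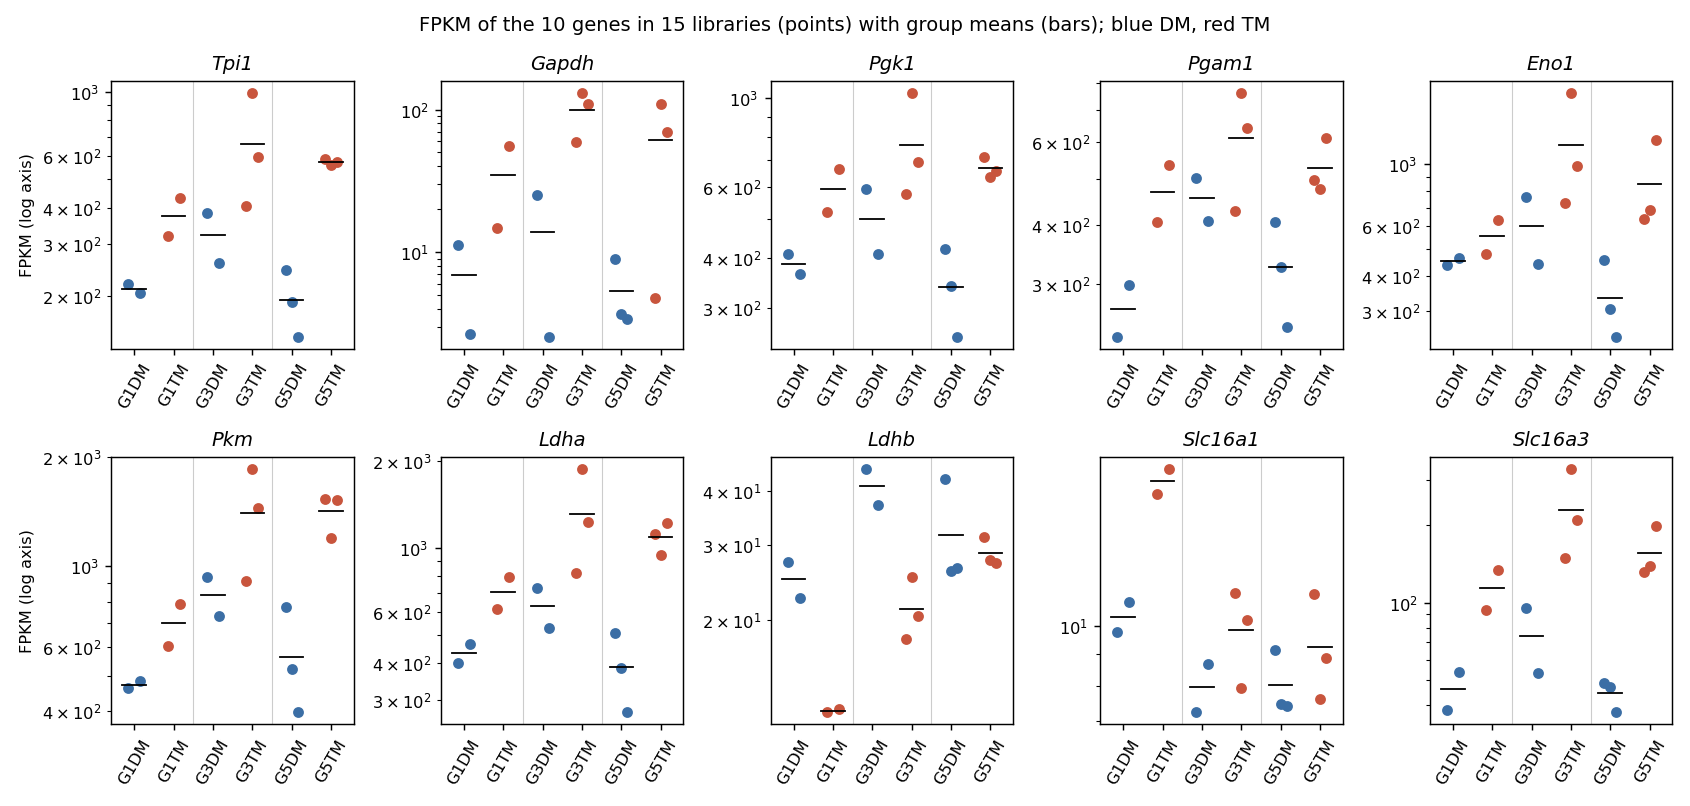
Each panel gives 1 gene, with FPKM on a log axis, a point for each library and a bar at each group mean, DM in blue and TM in red. Ldha, Tpi1 and Slc16a3 lie higher in TM than in DM of the same generation in every library, and Ldhb lies lower in TM in G1 and G3 but not in G5.

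TM against DM within a generation asks what the p53 change does in cells without telomerase and Wrn. In G1, 0 of the 10 genes passed the limma test. At an unadjusted limma p under 0.05 there were 4 members, and 1696 of all 13562 tested genes. Limma voom on the recovered reads, which kept the deposited library scaling, also called 0. Over all genes, 159 were called, 1.17%, with 49 higher and 110 lower, and quantile normalization moved this split to 199 and 209. Of the 10, 9 had both TM libraries above both DM libraries and Ldhb had both below, against 26.4% of all tested genes above and 23% below without overlap. The median difference of the 10 was 0.69, and that of all tested genes 0.02. Ldhb lay at 12.2 and 12.4 FPKM in G1TM and at 27.4 and 22.5 in G1DM, a difference of -0.96 ± 0.25 (SE; limma, adjusted p = 0.081). Slc16a3 lay at 93.4 and 133.9 FPKM in G1TM and at 38.4 and 53.8 in G1DM, a difference of 1.28 ± 0.38 (SE; limma, adjusted p = 0.13). Slc16a1 lay at 16.5 and 18.1 FPKM in G1TM, the highest of all libraries, and at 9.78 and 11.0 in G1DM. These G1 values all sit inside the 9 libraries that resemble each other. The 12 proliferation markers summed to 389.4 and 400.9 FPKM in G1TM against 111.0 and 240.8 in G1DM. The 14 skeletal muscle markers summed to 39.6 and 71.6 FPKM in G1TM against 65.0 and 182.1 in G1DM. The 12 fibroblast markers summed to 3981 and 4492 FPKM in G1TM against 6494 and 4362 in G1DM. The latter 2 lists overlapped between the groups, and the part of proliferation and of the cell mixture was not tested. After quantile normalization, which gives all libraries the same distribution, Slc16a3 was called higher (1.23, limma adjusted p = 0.043) and Ldhb lower (-1.15, limma adjusted p = 0.0063). Without G5DM replicate 1, which enters the shared estimate of the spread, Ldhb was also called lower (limma adjusted p = 0.023).

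In G3, 4 of the 10 genes rose in TM (18% of all tested genes were called higher) and 1 fell (13.9% were called lower). The median difference of the 10 was 0.80, and that of all tested genes 0.01. The FPKM of all genes summed to 304918 to 425814 in the G3TM libraries and to 273678 and 297503 in G3DM. Of this sum the 10 genes made up 1.35% to 2.06% in G3TM and 1.05% and 1.37% in G3DM, with overlap. Slc16a3 lay at 148.3, 330.2 and 209.7 FPKM in G3TM and at 95.4 and 53.3 in G3DM. All 3 TM libraries were above both DM libraries, by 1.59 ± 0.35 (SE; limma, adjusted p = 0.0045). Ldha, the muscle-type LDH subunit, lay at 822, 1876 and 1234 FPKM in G3TM and at 729 and 532 in G3DM, higher by 0.99 ± 0.35 (SE; limma, adjusted p = 0.046). Tpi1 lay at 405, 987 and 599 FPKM in G3TM and at 384 and 259 in G3DM, higher by 0.98 ± 0.34 (SE; limma, adjusted p = 0.045). Ldha and Tpi1 did not overlap between the groups, though G3TM replicate 1 was close to G3DM replicate 1 in both. Gapdh rose by 3.31 ± 1.11 (SE; limma, adjusted p = 0.036), and its sum with its copies by 1.33 ± 0.39 (SE; limma, adjusted p = 0.02). Ldhb, the heart-type subunit, lay at 18.1, 25.3 and 20.4 FPKM in G3TM and at 45.0 and 37.1 in G3DM, and fell by 0.92 on the log2 scale (SE 0.23; limma, adjusted p = 0.0083). The other 5 did not pass: Eno1 differed by 0.90, Pkm by 0.71, Pgk1 by 0.59, Slc16a1 by 0.27 and Pgam1 by 0.39, which turned to -0.18 after quantile normalization.

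The count of members that rose in G3 rested on single libraries. It was 0 without G3DM replicate 2, 1 without G3TM replicate 2 or 3, 2 without G3DM replicate 1, and 6 without G3TM replicate 1. It was also 2 without any 1 of 8 libraries outside G3, which enter only through the shared estimate of the spread (each G1 library, G5DM replicate 2 and each G5TM library). Tpi1 and Ldha were each called in only 8 of the 24 alternatives, and Gapdh in 18. Ldhb lost its call without G3DM replicate 1 (limma, adjusted p = 0.082), and Slc16a3 without G3DM replicate 2 (limma, adjusted p = 0.087), and both kept it under the other 23 alternatives. Quantile normalization left Slc16a3 higher and Ldhb lower, with Ldha at 0.37 and Tpi1 at 0.39. Other gene groups moved in the same comparison. Of the 12 proliferation markers, 9 were called higher in G3TM and 0 lower (median 1.61), and their sum was 440.0, 536.7 and 558.7 FPKM in G3TM against 169.5 and 152.7 in G3DM. Of the 12 fibroblast markers, 0 were called higher and 3 lower (median -0.80), with sums of 3801, 4951 and 4214 FPKM in G3TM against 6467 and 5091 in G3DM. In the G3TM libraries 6 of the 10 tested skeletal muscle markers were called higher and 1, Acta1, lower than in G3DM. Their 14 genes summed to 46.3, 509.0 and 233.4 FPKM in G3TM against 344.4 and 208.9 in G3DM. Myf6 and Ckm were at or below 0.14 FPKM in every library. The 12 macrophage and leukocyte markers summed to 8.37, 79.3 and 432.4 FPKM in G3TM against 26.2 and 29.6 in G3DM, with Ptprc at or below 0.11 FPKM, and 1 of the 9 tested, C1qa, was called higher. The part of other cells and of proliferation in these differences was not tested, and in bulk RNA fewer cells of a type and less RNA per cell cannot be told apart. Both G3DM libraries expressed Xist and all 3 G3TM libraries expressed Y-linked genes, so in G3 the sex of the embryos and the p53 genotype cannot be told apart, which bears on Pgk1, an X-linked gene.

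In G5, 8 of the 10 genes rose in TM, where 30.3% of all tested genes were called higher, and 0 fell, where 28.4% were called lower. The median difference of the 10 was 1.35, and that of all tested genes 0.02. The FPKM of all genes summed to 321044 to 420883 in the G5TM libraries and to 221056 to 301713 in G5DM. Of this sum the 10 genes made up 1.25% to 1.58% in G5TM and 0.737% to 0.968% in G5DM. Slc16a3 lay at 130.8, 138.8 and 197.4 FPKM in G5TM and at 48.9, 47.0 and 37.5 in G5DM, higher by 1.77 ± 0.31 (SE; limma, adjusted p = 0.0005). Tpi1 lay at 588, 559 and 573 FPKM in G5TM and at 244, 190 and 145 in G5DM, higher by 1.60 ± 0.31 (SE; limma, adjusted p = 0.00089). Ldha lay at 1120, 950 and 1219 FPKM in G5TM and at 510, 385 and 271 in G5DM, higher by 1.53 ± 0.31 (SE; limma, adjusted p = 0.0014). Pkm lay at 1533, 1200 and 1523 FPKM in G5TM and at 773, 520 and 396 in G5DM, higher by 1.38 ± 0.30 (SE; limma, adjusted p = 0.0022). All 4 of these genes were called higher under each of the 24 alternatives. Quantile normalization brought them down to 1.10, 0.71, 0.65 and 0.53. Eno1 rose by 1.32 ± 0.37 and Pgk1 by 1.01 ± 0.27 (SE; limma, adjusted p = 0.0087 and 0.0061). After quantile normalization neither was called, at 0.43 and 0.10. Pgam1 rose by 0.72 ± 0.27 (SE; limma, adjusted p = 0.033), but turned to -0.14 after quantile normalization. It kept its call in 16 of the 24 alternatives, and lost it with no filter, with only the groups compared, with the replicate block, and without G5DM replicate 2 or 3 or G5TM replicate 1 or 3.

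Gapdh rose by 2.59 ± 0.99 in G5 (SE; limma, adjusted p = 0.038), although its groups overlapped through G5TM replicate 1. Its call was kept in 17 of the 24 alternatives. It was lost without G5DM replicate 2 or 3, or G5TM replicate 2 or 3, and also with no filter, with only the groups compared and with the replicate block (limma, adjusted p = 0.10, 0.059 and 0.057). Summed with its copies, Gapdh was higher by 1.69 ± 0.35 (SE; limma, adjusted p = 0.0014), with 77.4, 159.1 and 131.7 FPKM in TM and 51.6, 32.5 and 27.2 in DM, and no overlap. Ldhb did not pass in G5: it lay at 31.3, 27.7 and 27.3 FPKM in TM and at 42.6, 26.0 and 26.4 in DM, a difference of -0.10 ± 0.20 (SE; limma, adjusted p = 0.68). Quantile normalization moved it to -0.57 and to a call (limma, adjusted p = 0.0062). Slc16a1, at 11.3, 7.61 and 8.88 FPKM in TM and 9.15, 7.46 and 7.41 in DM, differed by 0.18 ± 0.17 (SE; limma, adjusted p = 0.40). Of the 12 proliferation markers, 8 were called higher in G5TM than in G5DM and 1, Mki67, lower. Their sum was 539.2, 327.2 and 563.8 FPKM in G5TM against 211.7, 167.3 and 251.2 in G5DM. Of the 12 fibroblast markers, 0 were called higher and 5 lower (median -0.34), with sums of 3400, 3355 and 3637 FPKM in G5TM against 4099, 4246 and 4097 in G5DM. The part of proliferation and of the cell mixture in the differences of the 10 genes was not tested.

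**Figure D3:**
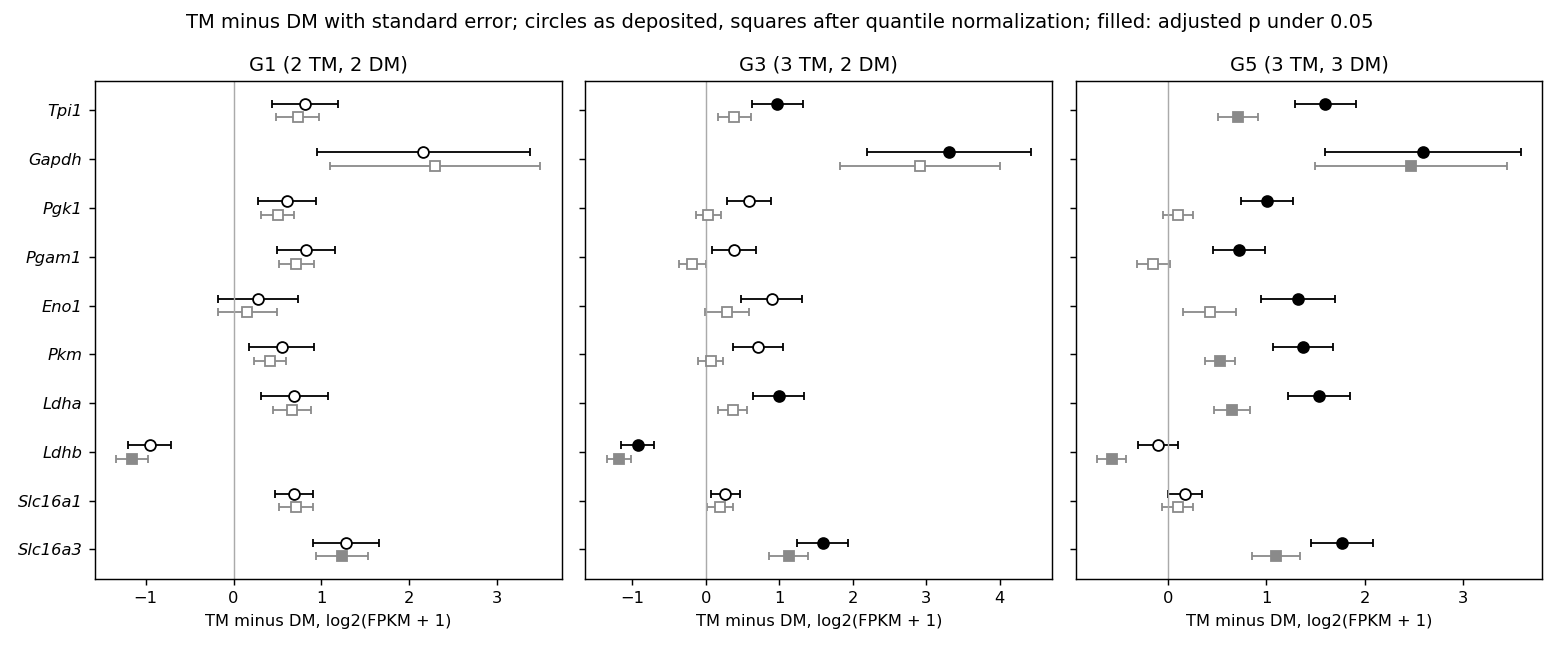
TM minus DM differences in log2(FPKM + 1) are given with standard errors for each gene in G1, G3 and G5, circles from the deposited scaling and squares after quantile normalization, filled where the limma adjusted p is under 0.05. Differences of the abundant enzymes shrink with quantile normalization in G3 and G5, where Pgam1 turns to -0.18 and -0.14, while Slc16a3 stays at 1.13 and 1.10.

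Whether the TM minus DM difference itself changed between generations was tested by interaction terms. Between G3 and G1, 0 of the 10 genes passed with limma (2.42% of all tested genes did), and voom also called 0. At an unadjusted limma p under 0.05 there were 0 members, and 2443 of all 13562 tested genes. Between G5 and G1, 0 passed with limma (19.8% of all tested genes did), and voom also called 0. There, 1 member had an unadjusted limma p under 0.05, and 5250 of all tested genes did. That member was Ldhb, whose difference was higher in G5 than in G1 by 0.85 ± 0.32 (SE; limma, adjusted p = 0.071). Without G5DM replicate 1, the library with the highest Ldhb of its group, the term was 1.08 (limma, adjusted p = 0.0058). For Pgam1 the term was -0.10 ± 0.42 (SE) and became -0.86 after quantile normalization (limma, adjusted p = 0.035). The larger number of members called in G5 than in G1 is therefore not shown to be a difference between generations.

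The balance of the LDH subunits separated the genotypes in every generation. Of the summed FPKM of Ldha and Ldhb, Ldhb made up 5.49 ± 1.25% in G1DM (SD, n = 2), and in G1TM 1.74 ± 0.29% (SD, n = 2). It made up 6.17 ± 0.49% in G3DM (SD, n = 2) and 1.70 ± 0.42% in G3TM (SD, n = 3), and 7.63 ± 1.27% in G5DM and 2.58 ± 0.34% in G5TM (SD, n = 3 each). All 7 DM libraries lay between 4.61% and 8.87%, and all 8 TM libraries between 1.33% and 2.83%, so the genotypes did not overlap. In FPKM, Ldha was 10.3 to 20.7 times Ldhb in DM and 34.3 to 74.2 times in TM. This separation was present in G1, where all 4 libraries lie among the 9, and it is given as a description without a test. A share is not changed by a factor that scales a whole library, but it is changed by shifts that differ between genes. In G3 and G5 the shares of DM and TM also span the division of the libraries, which cannot be told apart from genotype there.

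The balance of the lactate transporters also leaned further to Slc16a3 in TM. Of the summed FPKM of Slc16a1 and Slc16a3, Slc16a3 made up 81.4 ± 2.38% in G1DM (SD, n = 2), and in G1TM 86.6 ± 2.18% (SD, n = 2). The shares were 89.5 ± 4.91% in G3DM (SD, n = 2), 95.3 ± 2.38% in G3TM, 84.7 ± 1.46% in G5DM and 94.2 ± 1.89% in G5TM (SD, n = 3 each). TM was above DM without overlap in G1 and G5. In G3 the groups overlapped, since G3DM replicate 1 lay at 93.0% and G3TM replicate 1 at 92.9%.

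**Figure D4:**
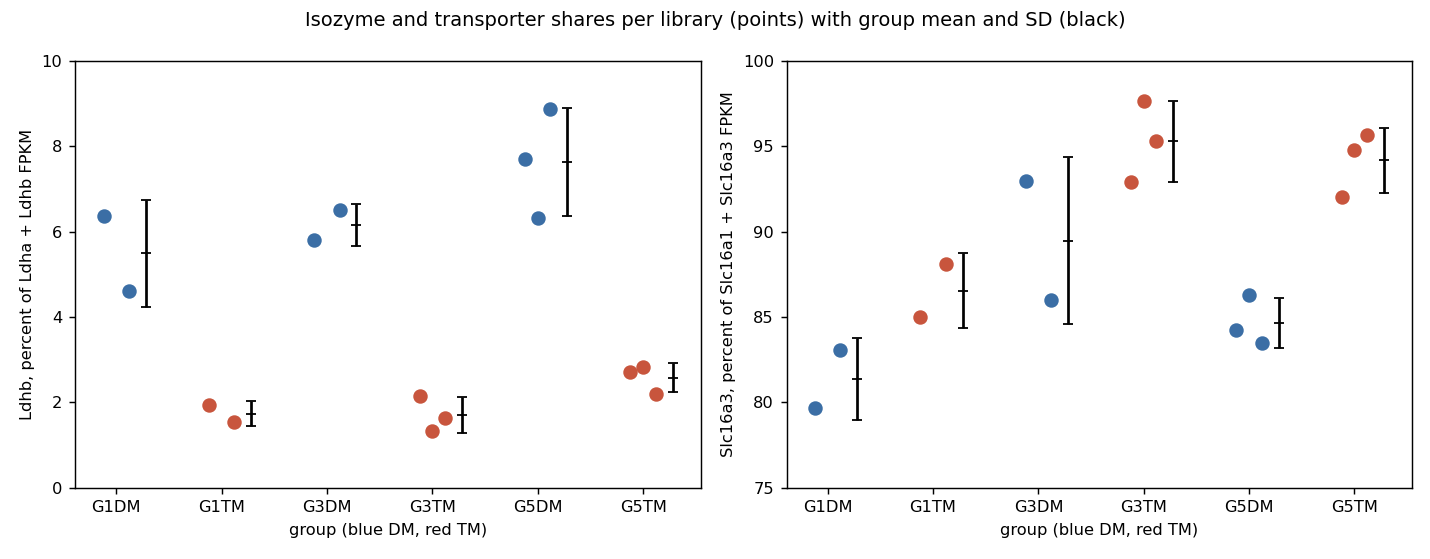
Points give, for each library, the percent of Ldhb in Ldha plus Ldhb (left) and of Slc16a3 in Slc16a1 plus Slc16a3 (right, axis from 75 to 100%), with group mean and SD in black. The Ldhb share stays at or above 4.61% in DM and at or below 2.83% in TM, and the Slc16a3 share overlaps between DM and TM in G3 only.

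Within DM, generations were compared to ask what loss of telomerase over generations does with wild-type p53. None of the 10 genes passed limma in G3 against G1, G5 against G1 or G5 against G3, where 0.214%, 0.059% and 4.98% of all tested genes were called, and voom also called 0 members in each. At an unadjusted limma p under 0.05 there were 3 members in G3 against G1 and 0 in the other comparisons. Of all 13562 tested genes, 2784 reached this in G3 against G1, 689 in G5 against G1 and 3011 in G5 against G3. The median difference of the 10 was 0.55 in G3 against G1, -0.17 in G5 against G1 and -0.64 in G5 against G3, beside 0.09, 0.01 and -0.09 for all tested genes. Ldhb differed by 0.70 ± 0.25 in G3 against G1 (SE; limma, adjusted p = 0.14). Without G5DM replicate 1 it was called higher in G3 than in G1 (limma, adjusted p = 0.034) and lower in G5 than in G3 (-0.62, limma adjusted p = 0.033).

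Within TM, G3 against G1 gave 3 members higher (25.2% of all tested genes were called higher) and 1 lower (21.6% were called lower). G5 against G1 gave 2 members higher (26% of all tested genes) and 1 lower (23.5%). Both comparisons share the 2 G1TM libraries and span the division of the libraries. After quantile normalization each gave 1 member higher and 3 lower. Marker lists moved in them as well. Of the 10 tested skeletal muscle markers, 8 were called higher in G3 (median 2.19) and 1 in G5, with sums of 39.6 and 71.6 FPKM in G1TM and 69.8, 44.7 and 172.0 in G5TM. Of the 12 fibroblast markers, 1 was higher and 3 lower in G3 (median -0.44), and 1 was higher and 7 lower in G5 (median -0.92), from sums of 3981 and 4492 FPKM in G1TM. Their part in the differences of the 10 genes was not tested. Both G1TM libraries expressed Xist, at 26.9 and 18.1 FPKM, and all 3 G3TM libraries expressed Y-linked genes and no Xist. In G3 against G1 within TM, the sex of the embryos and the generation therefore cannot be told apart. Slc16a1, the MCT1 transporter, lay at 11.3, 7.93 and 10.2 FPKM in G3TM, below both G1TM libraries, and fell by 0.77 (SE 0.20; limma, adjusted p = 0.008). In G5TM it fell by 0.85 against G1TM (SE 0.20; limma, adjusted p = 0.004), a call kept under all 24 alternatives. Ldhb rose by 0.73 ± 0.23 in G3TM and by 1.16 ± 0.23 in G5TM (SE; limma, adjusted p = 0.019 and 0.0017), the latter again under all 24 alternatives. Pkm rose by 0.96 ± 0.34 in G3TM and by 1.03 ± 0.34 in G5TM (SE; limma, adjusted p = 0.034 and 0.024), and quantile normalization reduced these to 0.15 and 0.24 with no call. Slc16a3 rose by 0.95 ± 0.35 in G3TM (SE; limma, adjusted p = 0.038), and was at 0.25 with no call after quantile normalization. The medians of the 10 were 0.78 and 0.51, beside 0.03 for all tested genes in both comparisons. Without either G1TM replicate 1 or replicate 2, none of the 10 was called in G3 against G1, and without G3TM replicate 1, 6 were higher and 1 lower. Without G3TM replicate 2, only Slc16a1 was called, without G3TM replicate 3 it was 1 higher and 1 lower, and without G5DM replicate 1 it was 5 higher and 1 lower. Pkm lost its call in G5 against G1 without G1TM replicate 1 or 2, or G5TM replicate 1 or 3. In G5 against G3, 0 members passed limma (0.0295% of all tested genes were called), and voom also called 0. At an unadjusted limma p under 0.05 there were 0 members, and 381 of all 13562 tested genes.

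The neighbouring steps of the pathway were read from lists chosen by function. Beside each count stand the shares of all tested genes given above: 1.17% called in G1, 18% higher and 13.9% lower in G3, and 30.3% higher and 28.4% lower in G5. Nothing particular to a list is read from its count. Of 17 tested genes of upper glycolysis and glucose uptake, 2 were higher in TM in G1, 3 in G3 and 6 in G5, and 3 were lower in G5. Their medians were 0.40, 0.15 and 0.26. Pfkfb3, which makes the activator of phosphofructokinase, and the hexokinase Hk2 rose in G1 by 1.87 ± 0.33 and 1.35 ± 0.30 (SE; limma, adjusted p = 0.014 and 0.047). Pfkl, the liver-type phosphofructokinase, was at 138.7 ± 60.8 FPKM in G3TM (SD, n = 3) against 53.7 ± 13.4 in G3DM (SD, n = 2), and at 111.8 ± 12.5 in G5TM against 32.8 ± 5.05 in G5DM (SD, n = 3 each). Gpi1, the glucose phosphate isomerase, rose by 0.87 ± 0.29 in G3 and 1.31 ± 0.26 in G5 (SE; limma, adjusted p = 0.038 and 0.0012). Pfkfb3 fell in G5 by 1.20 on the log2 scale (SE 0.27; limma, adjusted p = 0.0022). The interaction between G5 and G1 was -3.07 ± 0.42 for Pfkfb3 and -1.86 ± 0.38 for Hk2 (SE; limma, adjusted p = 0.001 and 0.009).

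Among 11 tested isozymes, paralogs and partners of the 10 genes, 0 were higher in TM, and 1 was lower in G3 and 2 in G5. Eno2, the neuronal enolase, fell by 1.47 (SE 0.26) in G3 and by 1.04 (SE 0.23) in G5 (limma, adjusted p = 0.0013 and 0.0022). Of 19 genes for the mitochondrial fate of pyruvate, 0 were called in G1, 2 were higher and 4 lower in G3, and 4 were higher and 4 lower in G5. In G3 Pdhb and Dlat, both parts of the pyruvate dehydrogenase complex, rose by 0.73 ± 0.19 and 0.69 ± 0.20 (SE; limma, adjusted p = 0.013 and 0.019). Pdk2 and Pdk3, kinases that inhibit this complex, fell by 1.14 and 0.71 (SE 0.29 and 0.20; limma, adjusted p = 0.011 and 0.015). Of 9 tested genes that branch from triose phosphate and 3-phosphoglycerate, 4 were higher and 1 lower in G3, and 5 higher and 0 lower in G5. Shmt2, which turns serine into glycine in mitochondria, was at 191.6 ± 88.5 FPKM in G3TM (SD, n = 3) against 61.9 ± 16.8 in G3DM (SD, n = 2). In G5 it was at 130.3 ± 20.1 FPKM in TM against 54.8 ± 34.7 in DM (SD, n = 3 each), a rise of 1.39 ± 0.39 (SE; limma, adjusted p = 0.0091). Of 7 genes of the cytosolic NADH shuttles, 4 were higher in G5 and 0 were called in G1 or G3, among them Mdh2 at 1.13 ± 0.32 in G5 (SE; limma, adjusted p = 0.0097).

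Lists of known regulators were counted in the same way, beside the same shares of all tested genes. Of 20 hypoxia-inducible factors and hypoxia targets outside glycolysis, 2 were higher in G1, 3 higher and 2 lower in G3, and 3 higher and 6 lower in G5. Their medians were 0.40, -0.15 and -0.03. Egln3 and Egln1, prolyl hydroxylases that mark HIF for breakdown, rose in G1 by 1.82 ± 0.32 and 1.00 ± 0.21 (SE; limma, adjusted p = 0.015 and 0.04). Hif1a fell by 2.12 in G5 (SE 0.43; limma, adjusted p = 0.0014). Of 13 tested genes of the Myc network, 0 were called in G1, 4 were higher and 2 lower in G3, and 3 higher and 2 lower in G5. Myc was at 59.8 ± 10.3 FPKM in G3TM (SD, n = 3) against 22.8 ± 0.848 in G3DM (SD, n = 2), and at 50.3 ± 14.1 in G5TM against 24.4 ± 8.22 in G5DM (SD, n = 3 each). Of 11 tested p53-linked regulators of glucose use, 2 were lower in G1, 2 higher and 3 lower in G3, and 4 higher and 3 lower in G5. Cdkn1a fell by 4.25 in G1, 3.50 in G3 and 3.74 in G5 (SE 0.54, 0.49 and 0.44; limma, adjusted p = 0.0020, 0.00032 and 4.0e-05).

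The genes whose log2(FPKM + 1) followed each member most closely over the 15 libraries were partly other members. Ldha and Tpi1 followed each other (Pearson correlation 0.99), and Gpi1 followed Tpi1 at 0.99. Pgk1 was closest to Tpi1 at 0.98, Eno1 to Ldha at 0.95 and Slc16a3 to Pfkl at 0.97. Ldhb was closest to Gsn at 0.96, and Slc16a1 to Thumpd1 at 0.93. Gapdh had no neighbour above 0.88 (Kdm4b). These are descriptions over libraries that share groups and the division into 6 and 9. Over the 9 libraries alone, Tpi1 and Pgk1 were closest to each other at 0.99, and Ldhb to Galt at 0.99.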

How the data were processed

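The authors deposited 1 table of FPKM for 54495 genes in 15 libraries. Per the submitters' processing notes, the tools were HISAT2 2.0.5, DESeq2 1.20.0, CASAVA 1.8, featureCounts 1.5.0-p3 and fastp, with no role or order stated. The genome build is not given in the sources used here; coordinates of 98.1% of gene identifiers equal those of GENCODE vM21 (GRCm38). FPKM times gene length gave whole reads within 0.05 for 100% of values, totalling 17448588 to 29571111 per library.

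From these values, 6 group means were fitted to log2(FPKM + 1) with limma 3.58.1 in R 4.3.3 (empirical Bayes, intensity trend, two-sided, Benjamini-Hochberg over the 13562 tested genes), and the fit was tested on simulated data. Near-identical copies were found with BLAST 2.17.0. The 10 genes and the gene lists were chosen with earlier results of these data known. All 10 genes are named; from each list at most 2 higher and 2 lower called genes per comparison are named, those with the largest difference and a group mean of at least 5 FPKM. Alternatives covered the pseudocount, the filter, the scaling, limma voom on recovered reads, the libraries in the fit, the replicate number, summed copies and each library left out.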

Additional observations from a re-analysis of the deposited data

Results flagged for a closer look

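For 15 of the 43 genes chosen from the lists by the naming rule, the TM minus DM difference itself differed between G1 and a later generation by an interaction term (limma, adjusted p from 0.001 to 0.0499). The rule takes the largest called differences within a generation, which favours large terms, so this count is not set against the share of all genes. The term, G5 minus G1 on the log2 scale, was -3.07 for Pfkfb3 and -1.86 for Hk2. Among hypoxia-linked genes it was -1.82 for Egln3, -2.18 for Hif1a, -2.08 for Kdm3a and -1.39 for Bnip3l. The TM minus DM difference of Pfkfb3 was 1.87 in G1 and -1.20 in G5, and that of Hk2 was 1.35 and -0.51. The term was also negative for Pdpr at -1.15, Mki67 at -2.66, and the fibroblast markers Lum at -3.70 and Dcn at -3.02. It was positive for Higd1a at 1.37, Egln2 at 1.41, Mxd3 at 1.13 and Rrad at 1.92. In G3 against G1 it was -1.04 for Gpd2. Each of these terms spans the division of the 6 libraries of G3TM and G5TM from the other 9, and the division and the generation cannot be told apart. None of the 10 glycolysis and lactate genes was in this group.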

How the results depend on the processing

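Each of the 110 pairs of a member and a comparison was refitted under 24 or 25 alternatives, 15 of which left out 1 library. Of these pairs, 20 were called. Quantile normalization changed most: Pgam1 turned to -0.14 in G5 for TM against DM, and Pgk1 and Pgam1, uncalled without it, were called lower within TM at -0.50 and -0.51 in G3 against G1 and at -0.65 and -0.64 in G5 against G1. Another 18 uncalled differences changed sign under it. An uncalled difference also changed sign 49 times over the fits that left out 1 library, and 2 times under the remaining settings. Under it the members called numbered 2 in G1, 2 in G3 and 1 for the G5 interaction. In G3, 2 members were called with no filter and 3 with only the groups compared, and in G5 6 were called with no filter, with only the groups compared, with the block, or (5 higher and 1 lower) after quantile normalization. For G3 against G1 in TM, 2 were called with no filter and 2 with only the groups compared. Libraries with the same replicate number in the title did not deviate together more than others did. Over 33 pairs of the same number the correlation of deviations ran from -0.54 to 0.38 (median -0.07), with 9 over 0.1. Over 60 pairs of different numbers it ran from -0.49 to 0.54 (median 0.02), with 26 over 0.1. With the replicate block, 2 members were called in G3 and 2 in G3 against G1 in TM. All genes called then numbered 95 in G1, 8 and 5 in G3 and G5 against G1 in DM, 102 in G5 against G3 in DM, and 159 and 1636 for the interactions of G3 and G5. All genes called in TM against DM in G1 numbered 408 after quantile normalization, 37 with only the groups compared and 59 with only the 9 libraries. For G3 against G1 in DM they numbered 3 with a pseudocount of 0.1, 118 with no filter, 57 after quantile normalization, 13 by voom, 0 with only the groups compared and 2 with only the 9 libraries. For G5 against G1 in DM they numbered 75 with no filter, 16 after quantile normalization and 2 with only the groups compared. For G5 against G3 in DM they numbered 194 with no filter, 0 with only the groups compared and 56 with only the 9 libraries. For the interactions they numbered 200 (G3) and 1224 (G5) with no filter, and 196 (G3) by voom. Leaving out 1 library gave these ranges of members called: 0 to 1 in G1, 1 to 7 in G3, 6 to 8 in G5, 0 to 1 in G3 against G1 in DM, 0 to 1 in G5 against G3 in DM, 0 to 7 and 2 to 3 in G3 and G5 against G1 in TM, and 0 to 1 for the G5 interaction. The ranges of all genes called were 21 to 355 in G1, 1552 to 5336 in G3, 6070 to 8921 in G5, 2 to 1533, 4 to 132 and 14 to 3107 in the DM generations (G3 to G1, G5 to G1, G5 to G3), 1775 to 7392, 2900 to 7683 and 2 to 15 in those of TM, and 80 to 1088 and 429 to 5756 for the interactions. On recovered reads not divided by length, Ldhb made up 2.69%, 0.833%, 3.02%, 0.816%, 3.77% and 1.24% of the LDH pair in G1DM, G1TM, G3DM, G3TM, G5DM and G5TM, and Slc16a3 84.0% and 86.9% of the transporter pair in G1DM and G5DM. Summing members with near-identical copies was chosen after seeing the data; it added Gapdh to the calls of G3 against G1 in TM at 1.04 (limma, adjusted p = 0.043) and changed no other call of a member. The pseudocount of 0.1, median-ratio rescaling, voom (209, 4231 and 7884 genes called for TM against DM in G1, G3 and G5), the 9 or 6 libraries alone and copies summed by name changed no call of a member. The median ratios were already between 0.981 and 1.015 as deposited, so rescaling by them could change little. Voom used library sizes implied by the FPKM and so kept the deposited scaling. These 2 settings therefore do not test the scaling, which only quantile normalization altered much.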

Other observations

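The copies of the glycolysis genes did not move as 1 group between the 9 libraries and the 6 of G3TM and G5TM. Pgam1-ps2, identical to Pgam1 over 765 aligned bases, ranged from 20.2 to 51.1 FPKM in the 9 and from 10.8 to 22.0 in the 6. Pgk1-rs7, identical to Pgk1 over 1255 aligned bases, ranged from 5.42 to 16.8 FPKM among the 9 and from 3.60 to 8.82 among the 6. Other copies lay higher in the 6. Gm6560, a copy of Pkm, spanned 11.0 to 27.8 FPKM among the 9 and 23.1 to 50.4 among the 6, and Ldha-ps2 at 2.83 to 8.58 and 7.16 to 17.5 FPKM.

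Of the Gapdh copies, Gm7336 lay at 15.9 to 38.2 FPKM among the 9 libraries and 32.6 to 72.0 among the 6, Gm12070 at 10.4 to 23.9 and 16.7 to 46.3, and Gm13394 at 4.69 to 13.0 and 6.61 to 24.9. Gm2606 lay at 1.00 to 3.10 FPKM and at 5.33 to 7.86, with no overlap, while Gm14760 and Gm2451 reached at most 5.40 and 6.33 FPKM. Of the Eno1 copies, Gm4735 spanned 24.5 to 108.2 FPKM among the 9 and 19.5 to 280.6 among the 6, and Gm5855 reached 10.5 FPKM. The retrogene Eno1b spanned 38.7 to 257.8 FPKM among the 9 and 48.7 to 1052 among the 6. Within G3TM its values were 48.7, 134.0 and 622.3 FPKM, and within G5TM 1052, 457.3 and 82.5 FPKM, so replicates of 1 group differed more for the retrogene than for Eno1.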
